A study of Caenorhabditis elegans with 92 samples.

Results

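Larva-only genes were defined as genes with an FPKM (sequenced fragments scaled to transcript length and to the mapped reads of the library) of at least 50 in all 6 RNA libraries of kle-2 larvae and under 1 in all 5 RNA libraries of wild-type embryos. Of 20376 measured genes, 1828 met the larval criterion, 6473 met the embryo criterion and 7 met both: nspc-15, nspc-12, pho-11, cnc-2, msrp-7, phat-3 and T11B7.5. The measured values themselves chose these genes, so their levels in larvae and embryos are a description and carry no test. The difference between the larval genotypes was not used to choose them and was tested.

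The series compared the binding of condensin complexes, which organize chromosomes in mitosis, meiosis and interphase, with gene expression in Caenorhabditis elegans. RNA was sequenced from 3 samples of homozygous kle-2(ok1151) larvae, 3 samples of heterozygous kle-2(ok1151) larvae and 5 samples of wild-type N2 mixed stage embryos, and kle-2 encodes a subunit that only condensin II holds. The larvae came from strain VC768, in which ok1151 is kept over the balancer hT2, a translocation between chromosomes I and III that bears bli-4(e937), let-?(q782) and the GFP transgene qIs48. Each larval sample was about 500 worms picked by hand, given as early L3 in the protocol and as L2-L3 in the stage label, where animals without GFP were homozygous and animals with GFP were heterozygous. Homozygous larvae had heterozygous mothers, so maternal KLE-2 was present early. Only heterozygous larvae carried the balancer and its GFP, and effects of these cannot be told apart from those of kle-2. Adults that gave the embryos were grown at 20 C and the larvae at room temperature. Strain, genotype, stage, growth temperature, starting material and table all differ between larvae and embryos and cannot be told apart either. Nothing states that replicates came from separate cultures, so the p-values measure the spread between these samples, which may be technical.

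Between embryo and adult, C. elegans passes through larval stages separated by moults, feeds through its pharynx, and meets bacteria in the gut and at the epidermis. Secreted digestive enzymes, pharyngeal gland products and small antimicrobial peptides serve feeding and defence, and their genes can be switched on before or after hatching. Embryos develop within an eggshell without feeding.

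The symbols of the 7 genes place them in 5 small families, with T11B7.5 known only by its sequence name. nspc-12 (F42F12.10) and nspc-15 (F42F12.8) belong to group C of the nematode specific peptide family and lie near each other on chromosome X. cnc-2 (R09B5.3), on chromosome V, encodes a caenacin, one of a group of small antimicrobial peptides of the epidermis. phat-3 (C49G7.4), also on chromosome V, belongs to a family named for its likeness to pharyngeal gland toxins. pho-11 (C05C10.4), on chromosome II, belongs to a family of acid phosphatases whose member pho-1 is an intestinal enzyme. msrp-7 (R06F6.7) lies on chromosome II and T11B7.5 on chromosome IV. None of the 7 lies on chromosome I or III, the chromosomes joined in the balancer.

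Relative to the first embryo library, sequencing depth estimated from the steps between low FPKM values was 0.861 to 1.49 in homozygous larvae, 1.18 to 1.69 in heterozygous larvae and 0.853 to 2.10 in embryos. The targeted gene kle-2 had 3.54, 4.24 and 6.59 FPKM in homozygous larvae, against 7.83, 10.0 and 12.8 FPKM in heterozygous larvae, without overlap (log2 fold change -0.97, SE 0.28). A value per gene does not tell which part of kle-2 the remaining reads covered. Its adjusted p was 0.313 in the fit of genotype alone and 0.013 where same-numbered libraries were paired, hereafter the replicate block (limma, Benjamini-Hochberg). Of 8 transcripts of early embryos, 7 were under 1 FPKM in all 6 larval libraries, and the sum of all 8 was 0.447 to 1.16 FPKM in homozygous larvae, 6.19 to 8.13 FPKM in heterozygous larvae and 102 to 242 FPKM in embryos. The eighth, pes-10, averaged 0.285 FPKM in homozygous and 6.49 FPKM in heterozygous larvae and made up most of the heterozygous sum. Only heterozygous larvae carried the balancer and its GFP transgene, whose part in the pes-10 values was not tested. Summed FPKM of 8 intestinal markers was 7220 to 7961 in homozygous larvae, 4995 to 5522 in heterozygous larvae and 265 to 1591 in embryos. Most of this sum was the protease gene asp-1, and the intestinal regulator elt-2 went the other way, at 5.99 to 14.4 FPKM in larvae and 17.8 to 24.8 FPKM in embryos.

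The larva-only genes were among the more highly expressed genes in larvae, as the limit of 50 FPKM, which 1828 genes met, required. Ranked by mean larval FPKM, they held places 745 to 1828 among all 20376 genes. The mean of the highest, nspc-15, was 2.76 times that of the lowest, T11B7.5. FPKM is scaled to transcript length, but reads shared with other genes can shift it, so these levels can be set beside each other only roughly. nspc-15 averaged 189 ± 61.1 FPKM over the 6 larval libraries, nspc-12 152 ± 49.0, pho-11 148 ± 54.8, cnc-2 102 ± 33.1, msrp-7 91.7 ± 15.5, phat-3 69.8 ± 8.71 and T11B7.5 68.5 ± 11.9 (SD, n = 6). Each step in this order was smaller than the spread of the higher gene of the pair, apart from that between msrp-7 and phat-3. In every library the larva-only genes were far apart from their embryo values: the lowest larval value of a gene was 81.2 times (cnc-2) to 146 times (nspc-12) its highest embryo value, which follows in part from the rule.

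**Figure D1:**
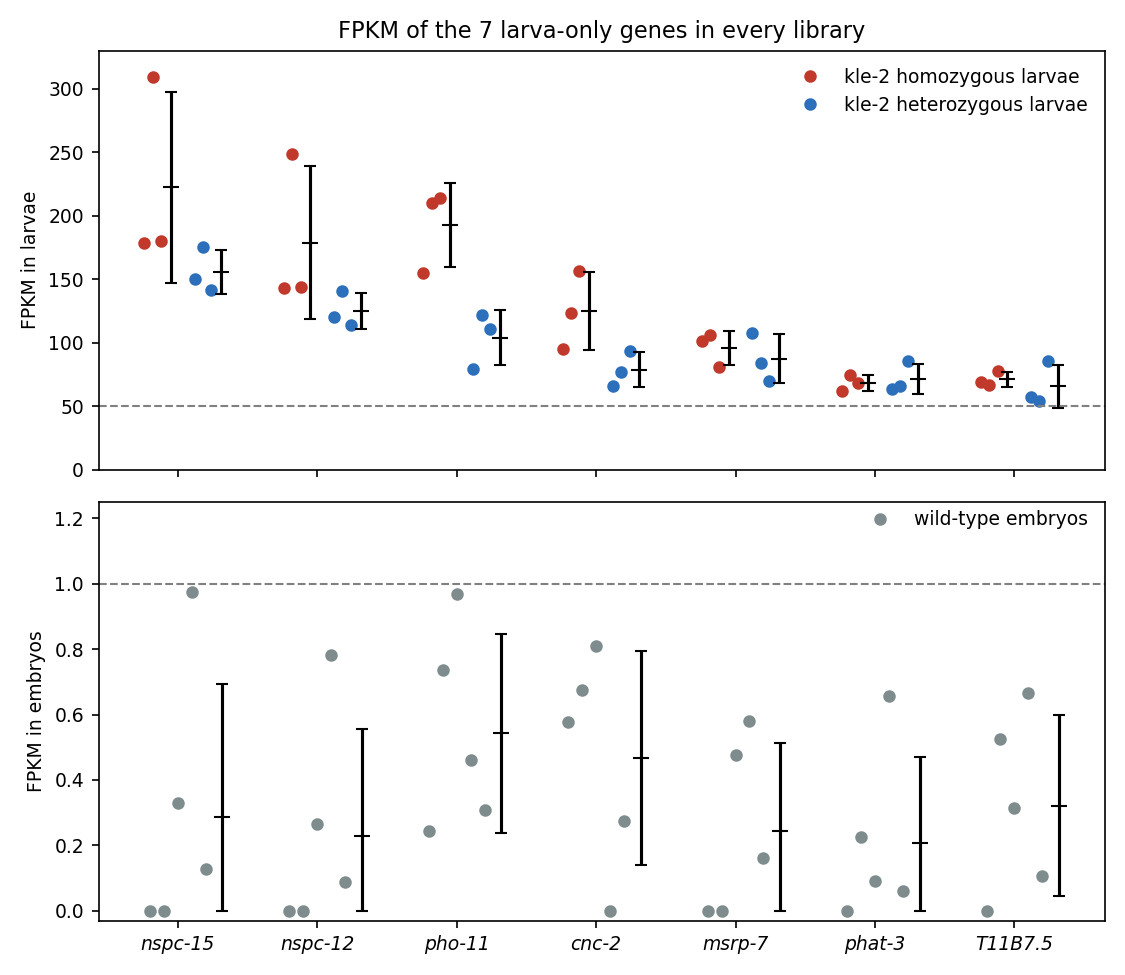
FPKM of each larva-only gene in every library, with larvae in the upper panel (homozygous left of heterozygous for each gene) and embryos in the lower panel on its own scale. Points are libraries, black bars are the mean and SD (cut at 0), and dashed lines are the thresholds of 50 and 1 FPKM. The homozygous points lie above the heterozygous points for nspc-15, nspc-12, pho-11 and cnc-2, and the 2 sets of points overlap for the other genes.

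In embryos the genes were near the lower end of what these libraries resolve. Of the 35 embryo values, 9 were listed at 0, and pho-11 was the only gene above 0 in all 5 libraries. Embryo library 4 held the highest embryo value for 5 of the 7 genes and library 3 for pho-11 and cnc-2. For msrp-7 and cnc-2, the FPKM values fell in whole steps in all 11 libraries (to within 0.05 of a step). If 1 step is 1 read, msrp-7 rested on 0, 0, 2, 3 and 1 reads in embryos and cnc-2 on 1, 1, 2, 0 and 1 reads, so that embryo libraries could not be ordered for these genes at this depth. In larvae the same step gave 1041 reads of msrp-7 in homozygous and 1063 reads in heterozygous libraries, and 839 and 560 reads of cnc-2. The other 5 genes had values between whole steps, which reads shared with other genes or transcripts can give.

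Within these 7 genes, the 2 nspc genes were not measured independently. nspc-15 had 178, 310 and 180 FPKM in homozygous larvae, against 150, 175 and 141.6 FPKM in heterozygous larvae, and 0, 0, 0.330, 0.976 and 0.128 FPKM in embryos. nspc-12 had 143, 248 and 144 FPKM in homozygous larvae, against 120, 141 and 114 FPKM in heterozygous larvae, and 0, 0, 0.264, 0.782 and 0.0895 FPKM in embryos. The ratio of nspc-12 to nspc-15 was 0.802 to 0.804 in all 6 larval libraries, a coefficient of variation of 0.151%, whereas nspc-14, which lies between them, kept a ratio to nspc-15 that varied by 14.3%. In embryo library 5, which held the lowest value above 0 of each gene (0.0895 FPKM for nspc-12 and 0.128 FPKM for nspc-15), the ratio was not kept. Reads shared by both genes can give such a fixed ratio, which was not tested, and the share of each gene is uncertain. The pair is therefore not 2 independent measurements, although counts, medians and sums over the 7 genes include both. Both genes were highest in replicate 2 of each genotype, and all homozygous libraries lay above all heterozygous ones.

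The fitted difference of the nspc pair, homozygous over heterozygous, was 1.38-fold (log2 fold change 0.47, SE 0.24, 95% interval -0.088 to 1.03 for nspc-15), which was not past the threshold. The adjusted p for nspc-15 was 0.71 in the fit of genotype alone and 0.093 with the replicate block (limma, Benjamini-Hochberg over 12837 genes). An exact two-sided permutation test over the 6 larval samples gave p = 0.1, the smallest that 3 against 3 allows, as it did for nspc-12, pho-11 and cnc-2. Without homozygous replicate 2, the log2 fold change of nspc-15 was 0.21.

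pho-11 had the largest difference between genotypes of the 7. It stood at 155, 210 and 214 FPKM in homozygous larvae, against 79.5, 122 and 110 FPKM in heterozygous larvae, and at 0.243, 0.736, 0.967, 0.461 and 0.308 FPKM in embryos. Replicate 1 was the lowest library of both genotypes, and the lowest homozygous library lay above the highest heterozygous one. The mean was 193 ± 33.1 FPKM in homozygous larvae and 104 ± 22.0 FPKM in heterozygous larvae (SD, n = 3 each), a 1.86-fold difference (log2 fold change 0.89, SE 0.22, 95% interval 0.38 to 1.401). limma gave an unadjusted p of 0.0037 and a Benjamini-Hochberg adjusted p of 0.223, so the gene was not called in the fit of genotype alone. With the replicate block the SE was 0.077 and the adjusted p 0.0076, and the gene was called higher in homozygous larvae. That call was lost without replicate 1 of both genotypes (adjusted p 0.070 in the blocked limma fit) and held without replicate 2 or 3. Of all tested genes, 2.26% had a larger log2 fold change.

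cnc-2 showed a like pattern at a lower level. The caenacin had 95.1, 124 and 156 FPKM in homozygous larvae, against 65.8, 77.0 and 93.4 FPKM in heterozygous larvae, and 0.577, 0.676, 0.811, 0 and 0.275 FPKM in embryos. In both genotypes replicate 3 was the highest and replicate 1 the lowest, and the groups did not overlap, although homozygous replicate 1 exceeded heterozygous replicate 3 by little. Means were 125 ± 30.6 FPKM in homozygous larvae and 78.7 ± 13.9 FPKM in heterozygous larvae (SD, n = 3 each), a 1.56-fold difference (log2 fold change 0.65, SE 0.23, 95% interval 0.12 to 1.17). The adjusted p was 0.448 without the block and 0.0151 with it (limma, Benjamini-Hochberg), and leaving out 1 replicate number of both genotypes gave blocked adjusted p-values of 0.041 to 0.081, past the threshold without replicate 3 and not without replicate 1 or 2. A larger log2 fold change was seen in 4.9% of all tested genes.

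The remaining 3 genes had overlapping genotypes. phat-3 had 62.0, 74.4 and 68.5 FPKM in homozygous larvae, against 63.5, 65.5 and 85.2 FPKM in heterozygous larvae, and 0, 0.225, 0.0899, 0.656 and 0.0609 FPKM in embryos. With a coefficient of variation of 12.5% over the larval libraries of both genotypes it was the steadiest of the 7, pho-11 being the most variable at 36.9%. This spread includes the difference between genotypes, which was largest for pho-11. Its log2 fold change was -0.054 (SE 0.18, 95% interval -0.48 to 0.37, limma adjusted p 0.998), and the sign turned without heterozygous replicate 3 (0.078) or homozygous replicate 1 (0.012).

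msrp-7 had 101, 106 and 80.7 FPKM in homozygous larvae, against 108, 84.1 and 70.1 FPKM in heterozygous larvae, and 0, 0, 0.476, 0.579 and 0.161 FPKM in embryos. T11B7.5 had 69.1, 66.7 and 78.1 FPKM in homozygous larvae, against 57.4, 54.3 and 85.3 FPKM in heterozygous larvae, and 0, 0.524, 0.314, 0.665 and 0.106 FPKM in embryos. For T11B7.5 the highest and the lowest of the 6 larval values were both heterozygous. Log2 fold changes were 0.15 for msrp-7 (95% interval -0.34 to 0.63) and 0.14 for T11B7.5 (95% interval -0.34 to 0.63), each with an adjusted p of 0.998 without the block, and of 0.446 for msrp-7 and 0.479 for T11B7.5 with it (limma). These intervals leave room for changes of either sign.

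**Figure D2:**
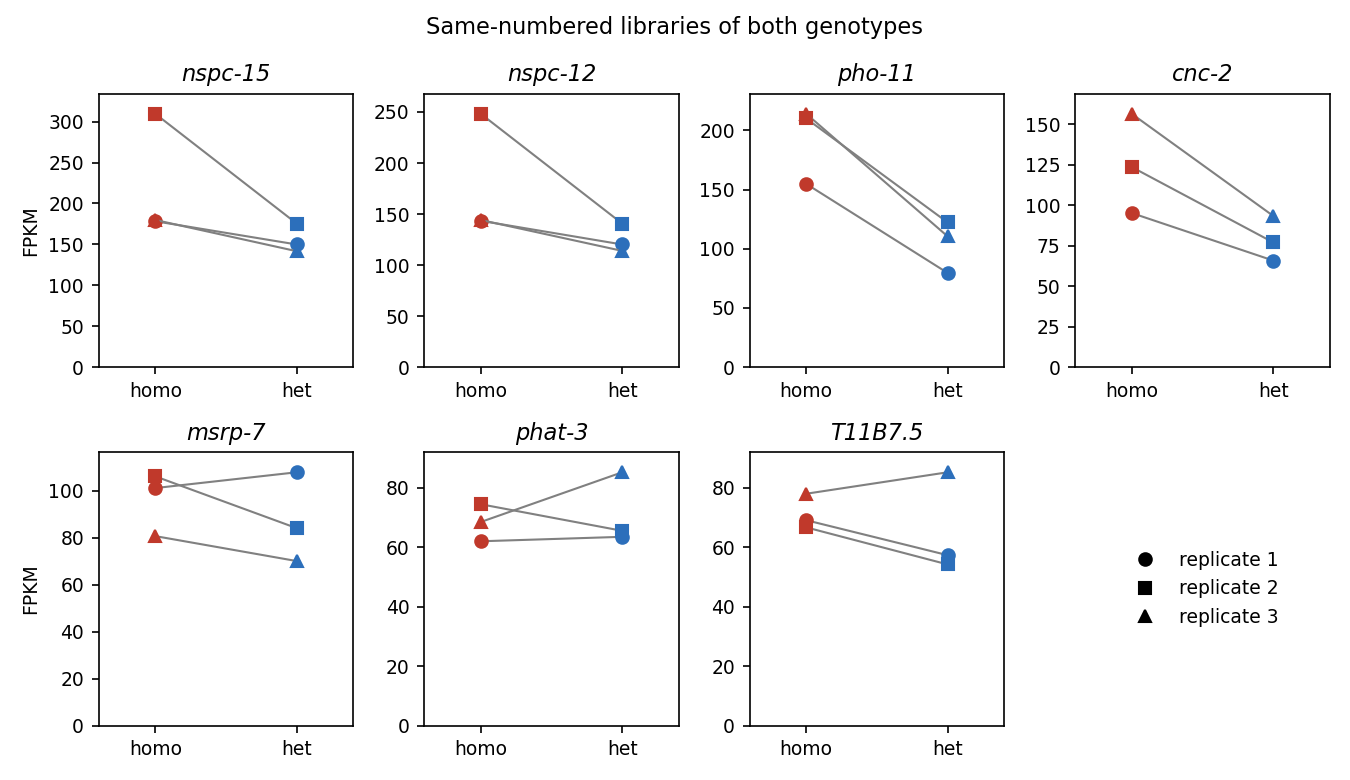
FPKM of each larva-only gene in homozygous (left) and heterozygous (right) larvae, with lines joining libraries of the same replicate number and each vertical axis starting at 0. All 3 lines fall to the right for nspc-15, nspc-12, pho-11 and cnc-2, whereas 2 of 3 do for msrp-7 and T11B7.5 and 1 of 3 for phat-3.

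As a group, 4 of the 7 larva-only genes had all homozygous libraries above all heterozygous ones, where 7.29% of all tested genes did, and none had the reverse, where 5.22% did. The nspc pair makes up 2 of these 4. The mean was higher in homozygous larvae for 6 of the 7, and their median log2 fold change was 0.47, against -0.0042 over all 12837 tested genes. This median is the value of nspc-12, in a set that holds the nspc pair as 2 genes, and was 0.21 without homozygous replicate 2. Summed over the 7 genes, the level was 804, 1139 and 922 FPKM in homozygous larvae, against 644, 719 and 700 FPKM in heterozygous larvae.

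Called by limma at an adjusted p of 0.05, 0 of the 7 genes passed in the fit of genotype alone, in which 0.117% of all tested genes were called (0.0779% higher and 0.0389% lower in homozygous larvae). Before adjustment, 2 of the 7 had a limma p under 0.05, as did 1079 of all 12837 tested genes. Pairing the libraries gave 2 calls among the 7, pho-11 and cnc-2, both higher, in a fit that called 8.43% of all tested genes (4.04% higher and 4.39% lower). In that fit 4 of the 7, the nspc pair among them, had an unadjusted p under 0.05, as did 3286 of all 12837 tested genes. Same-numbered libraries of both genotypes deviated together from their group means, which is the reason that the block is given. A gene below 50 FPKM in any 1 larval library could not be in the set, which limits how far a gene of low level in it could differ between genotypes.

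**Figure D3:**
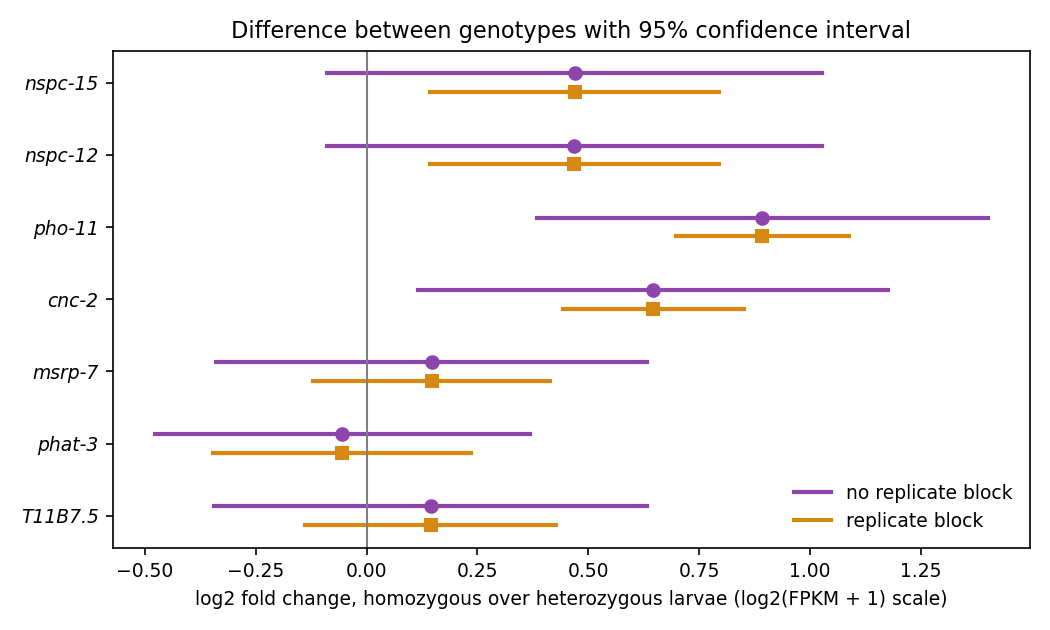
Log2 fold change of each larva-only gene in homozygous over heterozygous larvae on the log2(FPKM + 1) scale, with the 95% confidence interval from limma without the replicate block (circles, upper line) and with it (squares, lower line). The blocked intervals lie above 0 for nspc-15, nspc-12, pho-11 and cnc-2 and span 0 for msrp-7, phat-3 and T11B7.5.

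Summed levels of some tissue markers differed between the genotypes alongside these genes, while those of others overlapped. In the fit of genotype alone limma called 0 of 8 intestinal markers (3 at an unadjusted p under 0.05) and 0 of 7 tested hypodermal and seam markers (1 at an unadjusted p under 0.05). Of all 12837 tested genes, 1079 had such an unadjusted p in that fit. The intestinal markers had the higher sum in homozygous larvae, mostly through asp-1 (5607 FPKM in homozygous and 3811 FPKM in heterozygous larvae), with no marker at 0. In that direction 3 of 8 genes did not overlap, against 7.29% of all tested genes. With the block 2 of 8 were called higher, against 4.04% of all tested genes. The other direction was seen in the fitted values of elt-2 (-0.58), ifb-2 (-0.19) and vha-6 (-0.16), none of them called. The 4 body muscle markers summed to 3896 to 4059 FPKM in homozygous larvae and 3050 to 3216 FPKM in heterozygous larvae. Most of this sum was unc-54 and unc-15, and hlh-1 had a log2 fold change of -0.066. In 3 of the 4 all homozygous libraries lay above all heterozygous ones, against 7.29% of all tested genes. Without the block the limma adjusted p-values of the 4 were 0.330 to 0.998. With the block myo-3 and unc-15 were called higher (limma adjusted p 0.044 and 0.035), against 4.04% of all tested genes, and unc-54 and hlh-1 were not called. In contrast the 8 hypodermal and seam markers summed to 340 to 832 FPKM in homozygous larvae and 545 to 1475 FPKM in heterozygous larvae, which overlap. With the block 4 were called lower, against 4.39% of all tested genes. grd-10 had a log2 fold change of 0.03, and bli-1 was under 1 FPKM throughout the larvae. Pharynx marker sums overlapped too, at 259 to 288 FPKM in homozygous and 185 to 299 FPKM in heterozygous larvae. So did neuron marker sums, at 294 to 380 and 306 to 390 FPKM. The 5 germline markers summed to 101 to 114 FPKM in homozygous larvae and 79.2 to 85.5 FPKM in heterozygous larvae. In 4 of them all homozygous libraries lay above all heterozygous ones, and glp-1 had a log2 fold change of 0.026. Their limma adjusted p-values were 0.322 to 0.998 without the block. With it gld-1 and glh-1 were called higher (0.0143 and 0.043), and pgl-1, htp-3 and glp-1 were not called. The part of these shifts in the values of pho-11, cnc-2 and the nspc pair was not tested. In whole worms, fewer cells of a type and less RNA per cell cannot be told apart.

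The families were then compared, each taken whole from the annotation after the members' values were known. The nspc genes leaned one way between genotypes. Of 18 measured nspc genes, all had a higher mean in homozygous larvae, with a median log2 fold change of 0.63. In 14 of them all homozygous libraries lay above all heterozygous ones, against 7.29% of all tested genes. Without the block 0 were called, against 0.117% of all tested genes. An unadjusted limma p under 0.05 was seen in 11, as in 1079 of all 12837 tested genes. With the block 10 were called higher, against 4.04% of all tested genes. nspc-18 differed most, at 138 FPKM in homozygous larvae and 65.9 FPKM in heterozygous larvae (log2 fold change 1.05, adjusted p 0.163 without and 0.0119 with the block, limma). Many of the family lay near the limits of the rule: 10 of 18 were at 50 FPKM or more in all larvae, 8 of 18 were under 1 FPKM in all embryos, and the highest embryo mean was 3.93 FPKM, for nspc-20, against a larval mean of 376 FPKM. nspc-2 and nspc-6 had identical values in all larvae, so shared reads are not confined to nspc-12 and nspc-15, and the family does not give 18 independent measurements.

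The phosphatase family differed from its larva-only member in larval level. pho-11 was the highest of 12 measured pho genes in larvae and the only one at 50 FPKM or more in all larval libraries, followed by pho-14 at a mean of 41.0 FPKM. pho-1, the intestinal acid phosphatase, had 20.9, 34.9 and 39.2 FPKM in homozygous larvae, against 15.0, 28.6 and 38.1 FPKM in heterozygous larvae, and 2.77 to 26.6 FPKM in embryos, so that not every pho gene was low in embryos. Others were low there like pho-11. pho-4, pho-6, pho-8 and pho-14 had embryo means of 0.264, 0.787, 0.863 and 1.80 FPKM and larval means of 21.7, 12.8, 12.1 and 41.0 FPKM. With the block, 3 of 11 tested pho genes were called higher in homozygous larvae, against 4.04% of all tested genes. They were pho-11, pho-6 (log2 fold change 1.35) and pho-9 (0.60), and none was called lower. Without the block limma called 0, against 0.117% of all tested genes. An unadjusted p under 0.05 was seen in 3, as in 1079 of all 12837 tested genes.

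Among the 11 caenacins, cnc-2 was the only one with both a high larval and a near-zero embryo level. cnc-4, which lies close by on chromosome V, had 424, 376 and 403 FPKM in homozygous larvae, against 250, 261 and 213 FPKM in heterozygous larvae, and 27.9 to 74.3 FPKM in embryos. cnc-3, beside it, had 88.5, 95.6 and 61.6 FPKM in homozygous larvae, against 103, 152 and 61.4 FPKM in heterozygous larvae, and 17.7 to 109 FPKM in embryos. Near neighbours within the cluster thus differed in embryo level by over an order of magnitude while their larval levels were alike or higher. With the block 4 of 11 were called higher in homozygous larvae, against 4.04% of all tested genes: cnc-2, cnc-4, cnc-6 and cnc-7. cnc-7 was also called without it, at 42.3 FPKM in homozygous larvae and 10.96 FPKM in heterozygous larvae (limma adjusted p 0.0257).

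The 8 phat genes split by their level in embryos. phat-3, phat-6, phat-7 and phat-8 had embryo means of 0.206 to 1.11 FPKM, whereas phat-1, phat-2, phat-4 and phat-5 had embryo means of 53.96 to 184 FPKM. phat-7, the neighbour of phat-3 on chromosome V, had larval values of 249 to 347 FPKM, and its ratio to phat-3 was 3.92 to 4.43 over the larval libraries. It missed the larva-only set through a single embryo library, the fourth, at 2.44 FPKM. Between genotypes, phat-1, phat-2 and phat-4 were called lower in homozygous larvae with the block (log2 fold changes -1.38, -1.16 and -0.55), as were 4.39% of all tested genes. Without the block limma called 0, against 0.117% of all tested genes. An unadjusted p under 0.05 was seen in 2, as in 1079 of all 12837 tested genes. The 4 genes that were low in embryos had log2 fold changes of -0.054 to 0.25. All 8 phat genes were highest in embryo library 4.

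msrp-7 stood alone in its family. The other 6 msrp genes had larval means of 0.0305 to 0.575 FPKM, and msrp-3 and msrp-4 were higher in embryos, at 1.18 to 4.03 FPKM and 0.672 to 5.11 FPKM, than in larvae, where each was above 0 in 1 of 6 libraries. msrp-7 was thus the only msrp gene with a mean FPKM of at least 1 in larvae and the only one tested between genotypes.

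**Figure D4:**
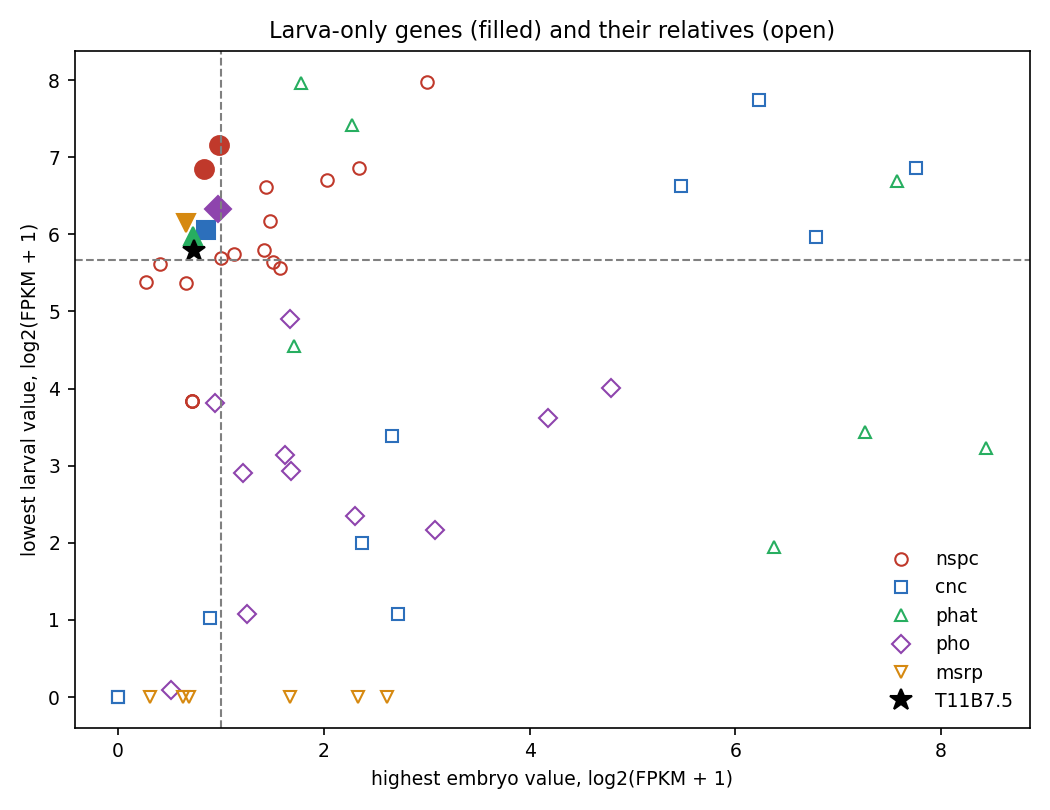
Lowest larval value against highest embryo value of each measured nspc, cnc, phat, pho and msrp gene and of T11B7.5, both as log2(FPKM + 1), with the larva-only genes filled and dashed lines at 50 FPKM in larvae and 1 FPKM in embryos. The nspc genes gather near the larva-only corner at the upper left, while the cnc and phat genes spread to embryo values above 100 FPKM and the msrp genes other than msrp-7 lie near 0 in larvae.

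No gene within 2 places of a larva-only gene met both limits. The order of genes was taken from the RefSeq annotation (WBcel235). irg-2, beside phat-3 and no relative by its symbol, was also low in embryos, at 5.35 to 16.2 FPKM in larvae and 0 to 0.341 FPKM in embryos, and C49G7.10, the next gene, was at 14.5 to 48.8 FPKM in larvae and 0.731 to 5.68 FPKM in embryos. Beside pho-11, pho-10 was at 0.0689 to 0.440 FPKM in larvae, and C05C10.3 was expressed in both stages, with a log2 fold change of 0.11 between genotypes. msrp-7 lay among genes with more transcript in embryos than msrp-7, such as ceh-62 (embryo mean 9.50 FPKM) and R06F6.8 (embryo mean 18.7 FPKM). T11B7.5 lay beside alp-1, which encodes a muscle Z-disc protein and had an embryo mean of 79.0 FPKM. F19H6.6, next to nspc-15 on the side away from the other nspc genes, went the other way between genotypes, with a log2 fold change of -1.62 (adjusted p 0.123 without and 0.0337 with the block, limma).

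Cuticle collagens, which are made anew ahead of each moult, held no larva-only gene. Of 178 measured cuticle collagen genes, 47 were at 50 FPKM or more in all larvae, and the one of these with the lowest highest embryo value was dpy-8, at 1.49 FPKM. A further 53 were under 1 FPKM in all embryos, of which col-142 had the highest lowest larval value, at 43.0 FPKM. The collagens at 50 FPKM or more varied more between larval libraries, both genotypes pooled, than the larva-only genes did. Their median coefficient of variation was 44.1%, against 32.3% for the larva-only genes and 17.3% for all 1828 genes at that level. Between genotypes the collagens had a median log2 fold change of -0.30, and with the block 9 of 124 were called higher and 39 lower. The larva-only genes had 2 of 7 higher and none lower, and all tested genes 4.04% higher and 4.39% lower. Without the block 2 collagens were called higher, against 0.0779% of all tested genes. Of 9 genes for processing and modifying collagen, 1 was called higher with the block and none was larva-only.

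The set depends on where its limits stand. Just inside the larval limit were T11B7.5, phat-3, cnc-2, msrp-7 and pho-11, with lowest larval values of 54.3, 62.0, 65.8, 70.1 and 79.5 FPKM, and just outside were fipr-24, nspc-9, ora-1, col-142 and F35E12.6, with 49.9, 48.0, 47.1, 43.0 and 42.5 FPKM. Just inside the embryo limit were nspc-15, pho-11, cnc-2, nspc-12 and T11B7.5, with highest embryo values of 0.976, 0.967, 0.811, 0.782 and 0.665 FPKM, and just outside were nspc-13, nspc-18, F57H12.6, lipl-5 and spp-2, with 1.01, 1.19, 1.24, 1.37 and 1.46 FPKM. Embryo library 4 decided the embryo side. Without it 10 more genes qualified: far-7, far-8, rol-6, col-90, mbug-1, phat-7, spp-2, nspc-13, nspc-14 and nspc-18. Leaving out any other embryo library added no gene. On the larval side, leaving out a heterozygous library added 2, 3 or 1 genes and leaving out a homozygous library added none, so every gene held back by 1 larval library was held back by a heterozygous one.

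With the larval limit at 20 FPKM the set grew to 31 genes, which include the 7. Of these 31, 25 (80.6%) had a positive log2 fold change, against 49.3% of all tested genes, with a median of 0.41. All homozygous libraries lay above all heterozygous ones for 11 of them (35.5%), against 7.29% of all tested genes, and below for 1, against 5.22%. limma called 0 of the 31 without the block, and 9 had an unadjusted p under 0.05, as did 1079 of all 12837 tested genes. With the block it called 11 higher and 1 lower, against 4.04% and 4.39% of all tested genes. These counts include the 7 genes, of which 6 had a positive log2 fold change, 4 did not overlap and 2 were called with the block. The added genes were not summarized alone, and they include nspc-4, nspc-9 and nspc-10, relatives of nspc-12 and nspc-15.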

How the data were processed

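RNA was analysed from 6 larval and 5 embryo samples, grouped by their labels. The authors aligned stranded single-end reads to WS220 with tophat and deposited FPKM values per gene from Cufflinks 2.0.2, in one table for larvae and one for embryos. After 2 repeated rows were dropped, both tables held 20376 genes, of which 19878 were named through the RefSeq gene table. Depth in reads is not in the tables, and only relative depth was estimated, from the steps between FPKM values under 3. Peak lists, the other deposited data, were not used here, because gene positions on their build were not at hand. No sequences of these genes were used here.

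Homozygous and heterozygous larvae were compared with limma 3.58.1 (R 4.3.3, intensity trend) on log2(FPKM + 1). The 12837 genes that averaged 1 FPKM or more in larvae were tested, with Benjamini-Hochberg adjustment and a threshold of 0.05. All 7 larva-only genes passed that filter. Fold changes are on the log2(FPKM + 1) scale and understate those of low genes. The script was tested on simulated data. The main fit had genotype alone. Deviations from the group means correlated at 0.44, 0.55 and 0.62 for same-numbered libraries and at -0.48 to -0.02 for other pairs, so blocked values are given as well. Deviations cancel out within each genotype, so the negative correlations follow in part from the positive ones. The pairing comes from these values and is not stated by the labels. Tables and the embryo comparison were handled in Python 3.11.15 with pandas 2.3.3 and numpy 2.4.6, and figures with matplotlib 3.10.9.

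The text names all larva-only genes, the 5 genes just inside and outside each limit, and kle-2. Families were taken by symbol, and neighbours, relatives and extreme family members were picked after their values were seen. The larva-only genes, marker lists and families were chosen with earlier results of these data known. Alternatives covered the pseudocount, low-value filter, scaling, trend, block, each library and each limit.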

Additional observations from a re-analysis of the deposited data

Results flagged for a closer look

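Over the 7 larva-only genes, the genes of their families and kle-2, 58 genes were examined for a library that stood far from the others among the 5 embryo libraries, and 4 were found. No chance rate is given, since many of these values rest on few reads and are tied at 0. A gene above 0 in only 1 embryo library, as nspc-4 and cnc-1 were, is always flagged. nspc-4 was at 0.210 FPKM in embryo library 4 and at 0 in the other embryo libraries. cnc-1 was at 0.854 FPKM in embryo library 3 and at 0 in the other embryo libraries. phat-7, the neighbour of phat-3, was at 2.44 FPKM in embryo library 4, where the next highest embryo library had 0.601 FPKM. pho-4 was at 0.922 FPKM in embryo library 4, where the next highest had 0.227 FPKM. None of the 7 larva-only genes had such a library.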

How the results depend on the processing

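Over the 18 alternatives, 126 fold changes of the larva-only genes were recomputed, of which 114 kept direction and side of the threshold, 9 passed it only with the block (pho-11 and cnc-2), and 3 reversed, all phat-3: 0.078 without heterozygous replicate 3, 0.012 without homozygous replicate 1 (range -0.13 to 0.078 when 1 library was left out), and 0.074 with the block without replicate 3. The number of larva-only genes called was 0 in the fit of genotype alone and under all alternatives without a block. With the replicate block it was 2, also with median centring or quantile normalization added, and 0, 1 and 2 without replicate 1, 2 and 3 of both genotypes. Their median log2 fold change was 0.21 to 0.60 when 1 library was left out. Calls over all genes numbered 15, against 6 with no filter, 36 with quantile normalization, 7 with no trend and 1082 with the block (1238 with median centring, 1146 with quantile normalization, and 0, 364 and 951 without replicate 1, 2 and 3), and 0 to 28 when 1 library was left out. The number of larva-only genes was 31 and 2 at larval limits of 20 and 100 FPKM, 24 with a larval mean of at least 50 FPKM, 0 and 61 at embryo limits of 0.1 and 5 FPKM, 29 with an embryo median under 1 FPKM, and 7 to 17 when 1 library was left out (17 without embryo replicate 4). The cause of these shifts was not tested. Blocked fits with a scaling or without a replicate number, and the larval limit of 20 FPKM for calls, were added after seeing the data. Shares of promoters with a motif and protein features were not run. The embryo values rest on few reads and limit any order among embryo libraries.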
